A study of Mus musculus with 8 samples.

Results

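The replication-dependent histone genes of mouse CD4+ T cells were followed across Tregs and Tconvs of CD70Tg and control mice. They were taken as all rows of the deposited table whose gene name places them in the Hist1, Hist2, Hist3 or Hist4 cluster, which gave 70 of the 52636 genes listed. Of these, 6 encode the linker histone H1, 20 encode H2A, 19 encode H2B, 12 encode H3 and 13 encode H4. In the annotation used here, 67 are protein-coding and 3 are pseudogenes.

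Histones are the proteins around which DNA is wound: pairs of H2A, H2B, H3 and H4 form the core of the nucleosome, and H1 binds the linker DNA between cores. Their replication-dependent genes are transcribed mainly in S phase, when new DNA has to be packaged, and most of their mRNAs end in a conserved stem-loop instead of a poly(A) tail. The stem-loop is bound by SLBP, which guides the processing, export and translation of these mRNAs, and the mRNAs are degraded when DNA synthesis stops. Some histone genes also give polyadenylated transcripts, which can persist in cells that do not divide.

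RNA was sequenced from splenic CD4+ T cells of mice aged 6 to 8 weeks, with 2 libraries in each of 4 groups. Tregs were the GFP+ and Tconvs the GFP- cells of mice with a Foxp3-eGFP reporter, both sorted as CD3+ CD4+ after magnetic depletion of B cells, NK cells, granulocytes, CD8+, erythroid, CD11c+ and MHC class II+ cells, with CD25+ cells depleted as well for the Tconvs. Control mice were CD27+/-, and CD70Tg mice were CD11c-Cd70tg;CD27+/-, so that both carried a single functional Cd27 allele and differed by a Cd70 transgene that the CD11c promoter drives in dendritic cells, not in the T cells themselves. Each library's column carries a tag of its own, F1 to F8, whose meaning no source used here gives. None says that the libraries of a group came from separate mice, so the p-values measure the spread between these libraries, which may be technical. Values are reads scaled by the authors to 20 M (M, 1000000) per library and rounded up, so that 20 equals 1 CPM. The libraries held between 1.90 and 33.18 M reads on genes. The 4 Treg libraries, with 1.90 to 4.52 M, were all shallower than the 4 Tconv libraries, with 6.90 to 33.18 M. Foxp3, the transcription factor that defines Tregs, had values of 19769 to 21367 in Tregs and 1039 to 1497 in Tconvs, and Cd4 was at 16100 or above in every library.

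Histone reads were scarce. All 70 genes together took 1265 and 671 reads in the 2 control Tconv libraries and 334 and 2176 reads in the CD70Tg Tconv libraries. In Tregs they took 158 and 187 reads in controls and 84 and 193 reads in CD70Tg. As a share of the library this was between 0.00383% and 0.00702%. Counting intervals given below cover counting error only.

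Most members were near or at the limit of detection. A read was found for 26 to 62 of the 70 genes, depending on the library, and at least 3 reads for 6 to 44 of them. The lowest of these numbers came from the shallowest library, a CD70Tg Treg library, and the highest from the deepest, a CD70Tg Tconv library. Over the 8 libraries, 24 members never reached 3 reads, and 5 (Hist1h2aa, Hist1h2ad, Hist1h2aj, Hist1h2ba and Hist1h3b) were at 0 throughout. In the deepest library a value of 2 can stand for 2 or 3 reads and was counted as 2. The 44 and the 24 are less certain for this reason. Taken as 3 reads, such values would bring 52 members to 3 reads in that library. In any library a count of 0 allows up to 3 reads, which corresponds to a value of 1.8 in the deepest and 31.3 in the shallowest library. Testing required 60 or more in 2 or more libraries, which left 6 members: Hist3h2a, Hist2h2be, Hist1h1c, Hist3h2ba, Hist1h4i and Hist1h2bc. Of these, 4 had a value of 60 or more in all 8 libraries, and neither Hist1h4i nor Hist1h2bc passed through the libraries of a single group. The next highest value of any member was 39, for Hist1h3c in a single library.

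The stem-loop sequences are shown first, because they are the shared element at which the mRNAs of this family are processed. The sense strand after the stop codon was searched for the 16-base consensus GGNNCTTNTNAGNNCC, in GENCODE M21 transcripts on GRCm38. It was found in 46 of the 67 protein-coding members, or 68.7%, against 118 of 21884 other protein-coding genes, or 0.539%, searched over the whole transcript. Of the 46, 26 shared the same 16 bases, and these belonged to H1, H2A, H2B and H3 genes, while the H4 genes carried other stems. Below are the elements of the 4 tested members that hold a match, followed by an example of each of the other forms, with the stem-loop in capitals and 6 flanking bases on each side.
Hist1h1c (H1): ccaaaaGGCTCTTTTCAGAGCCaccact
Hist3h2a (H2A): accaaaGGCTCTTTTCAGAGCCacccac
Hist3h2ba (H2B): cccaaaGGCTCTTTTCAGAGCCaccttc
Hist1h4i (H4): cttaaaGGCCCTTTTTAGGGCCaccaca
Hist1h4d (H4): accaaaGGCCCTTTTCAGGGCCactacc
Hist1h3c (H3): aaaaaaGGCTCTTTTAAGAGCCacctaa
Hist1h4b (H4): acaaaaGGTCCTTTTCAGGACCactcac
Hist1h4a (H4): accaaaGGCCCTTCTCAGGGCCgcccac
Hist1h3g (H3): tttaaaGGCTCTTCTTAGAGCCacccat
Hist2h2ac (H2A): caaaaaGGCTCTTTTTAGAGCCaccaaa
The capitals of Hist1h1c lie at chr13:23739512-23739527 on the plus strand, those of Hist3h2a at chr11:58955172-58955187 on the plus strand, those of Hist3h2ba at chr11:58949349-58949364 on the plus strand and those of Hist1h4i at chr13:22040966-22040981 on the minus strand. The form of Hist1h4d was shared by 7 H4 genes, that of Hist1h3c by 6 genes of H1, H2B and H3, those of Hist1h4i and Hist1h4b by 2 H4 genes each, and the last 3 forms were found in a single gene each. A match is a description of these letters, and a missing match can reflect an annotated transcript that stops at or near its stop codon, as it did for 15 members with 2 bases or fewer annotated after it.

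The annotated ends of the tested members, which their choice by level did not use, lay past the stem-loop or came without it. The transcript ran on for 1643 bases after the stem-loop in Hist3h2a, for 840 bases in Hist1h1c, for 330 bases in Hist1h4i and for 169 bases in Hist3h2ba. Hist2h2be had no match in the 2192 bases annotated after its stop codon, and neither had Hist1h2bc, whose transcript of 2 exons has 742 bases after it. Such long ends were not particular to them, since 16 of the 42 untested members with a stem-loop also had 169 or more bases after it. A poly(A) signal (AATAAA or ATTAAA, sense strand) lay in the last 50 bases of 5 of the 6, the exception being Hist1h2bc. Among all 67 protein-coding members 17 had such a signal, or 25.4%, against 80.8% of the other protein-coding genes. These 17 genes held 76.3% of the summed histone value. Their median level was 4.52 reads per 20 M and kb of exon, beside 4.97 over the 50 genes without the signal, and 5 of the 17 passed the filter for testing against 1 of the 50.

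Levels of different genes are compared per kb of annotated exon. On that scale Hist3h2ba was highest, with a mean over the 8 libraries of 196 reads per 20 M and kb, followed by Hist3h2a (135), Hist1h1c (81.7), Hist1h4i (78.2), Hist2h2be (67.7) and Hist1h2bc (48.6). The next members were Hist2h2ac (29.8), Hist2h2aa2 (24.6) and Hist1h2bj (21.3), and the median of all 70 members was 4.39. Both leading genes thus came from the small Hist3 cluster on chromosome 11, which holds 3 of the 70 members, while 56 lie on chromosome 13, 10 on chromosome 3 and 1 on chromosome 6. Where a transcript in these cells ends before the annotated end, the level per kb is understated, so the order among genes of unequal annotated length depends on the annotation.

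**Figure D1:**
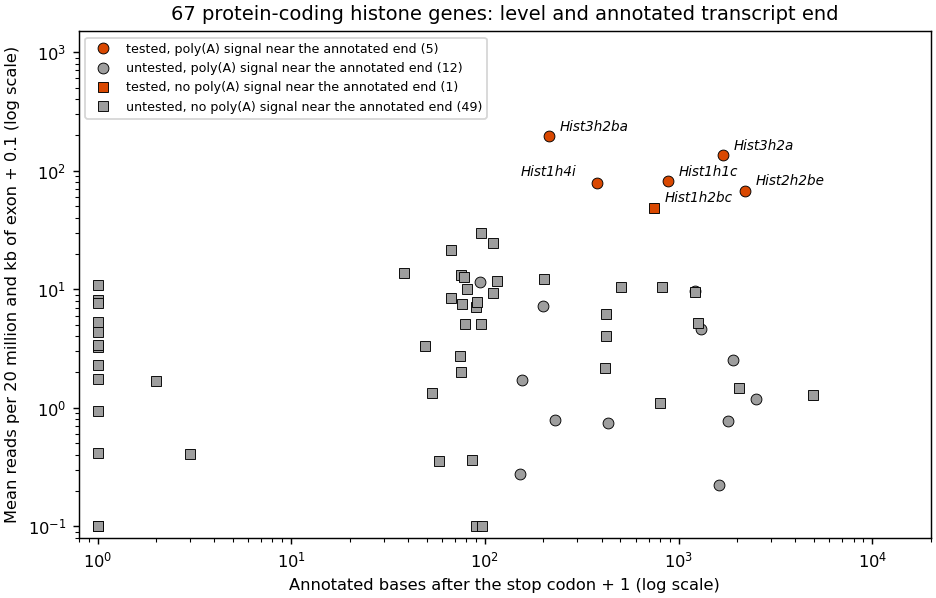
Each symbol is a protein-coding histone gene, placed by the annotated bases after its stop codon (x axis, plus 1, log scale) and its mean level over 8 libraries in reads per 20 M and kb of exon (y axis, plus 0.1, log scale). Circles have a poly(A) signal in the last 50 bases, squares do not, and orange marks the 6 tested genes, which lie above the other 61 between 48.6 and 196 per kb.

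Reads of several members cannot be assigned to a single gene. Exon sequence of 26 members, among them all 20 H2A genes, overlapped another annotated gene, and 5 members were covered over their whole length. Of the genes that enclosed a member or lay within it, 18 pairs had a value. In all 144 comparisons by library the inner gene did not exceed the outer gene by more than 1, on either strand. Of 15 genes annotated inside a member on the opposite strand, 10 had a value above 0. Reads in overlaps were not all left out, since Hist2h3c1, an H3 gene that another gene on its own strand covers whole, still had values of 6 to 34. Without stated strand such reads cannot be told apart. For Hist3h2a, 33.0% of the exon length overlapped other genes, including Trim17, which encodes a ubiquitin ligase and whose own values were 382 and 421 in control Tconvs, 309 and 333 in CD70Tg Tconvs, 229 and 189 in control Tregs and 230 and 202 in CD70Tg Tregs. Values of Hist3h2a may hold reads of Trim17. The other 5 tested members overlapped no annotated gene. Shared sequence is a further limit. At least 50% of the 50-base windows of 36 members were shared with other genes, copies and genes annotated over the same locus alike. Hist2h2aa1 and Hist2h2aa2, neighbouring H2A genes, shared all of their windows, and other genes also covered both over their whole length. Hist2h2aa1 ranged from 0 to 11 and Hist2h2aa2 from 3 to 26, a split that is uncertain for this reason. None of the 6 tested members was among those 36.

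The 6 tested genes are described by histone type, with values in reads per 20 M. Hist1h1c encodes a linker histone that is common in somatic cells and lies at chr13:23738808-23740367 on the plus strand. It had values of 125 and 109 in control Tconvs, 90 and 197 in CD70Tg Tconvs, 78 and 145 in control Tregs and 84 and 191 in CD70Tg Tregs. Except in control Tconvs, the 2 libraries of each group lay far apart, and all 4 groups overlapped. The second H1 gene by mean value, Hist1h1e, ranged from 6 to 27 and was not tested.

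Hist3h2a, at chr11:58954685-58956830 on the plus strand, encodes an H2A of the core. It had values of 364 and 434 in control Tconvs, 306 and 347 in CD70Tg Tconvs, 243 and 202 in control Tregs and 209 and 218 in CD70Tg Tregs. Every Tconv library lay above every Treg library, and the 2 Treg groups overlapped. Hist2h2ac, the second H2A gene by mean value, ranged from 5 to 30.

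Among H2B genes Hist2h2be, at chr3:96221119-96223738 on the plus strand, had values of 303 and 304 in control Tconvs, 185 and 202 in CD70Tg Tconvs, 117 and 84 in control Tregs and 136 and 87 in CD70Tg Tregs. The order of its groups was control Tconvs, then CD70Tg Tconvs, then both Treg groups, which overlapped. Hist3h2ba, an H2B gene next to Hist3h2a at chr11:58948920-58949533 on the plus strand, had values of 190 and 172 in control Tconvs, 116 and 166 in CD70Tg Tconvs, 83 and 84 in control Tregs and 74 and 77 in CD70Tg Tregs. It too was higher in every Tconv than in every Treg library. Hist1h2bc, an H2B gene at chr13:23684199-23692908 on the plus strand, had values of 57 and 82 in control Tconvs, 41 and 62 in CD70Tg Tconvs, 34 and 49 in control Tregs and 53 and 71 in CD70Tg Tregs. Its Treg groups did not overlap, with CD70Tg above control, whereas its Tconv groups did.

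Among H4 genes Hist1h4i, at chr13:22040636-22041362 on the minus strand, had values of 79 and 74 in control Tconvs, 44 and 60 in CD70Tg Tconvs, 30 and 66 in control Tregs and 53 and 49 in CD70Tg Tregs. Control Tconvs lay above the other 6 libraries, which overlapped. Hist1h4d, the second H4 gene by mean value, ranged from 5 to 21. No H3 gene passed the filter: Hist2h3c1 ranged from 6 to 34 and Hist1h3c from 0 to 39, with 39 in a single CD70Tg Treg library and 7 or less in the other 7.

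**Figure D2:**
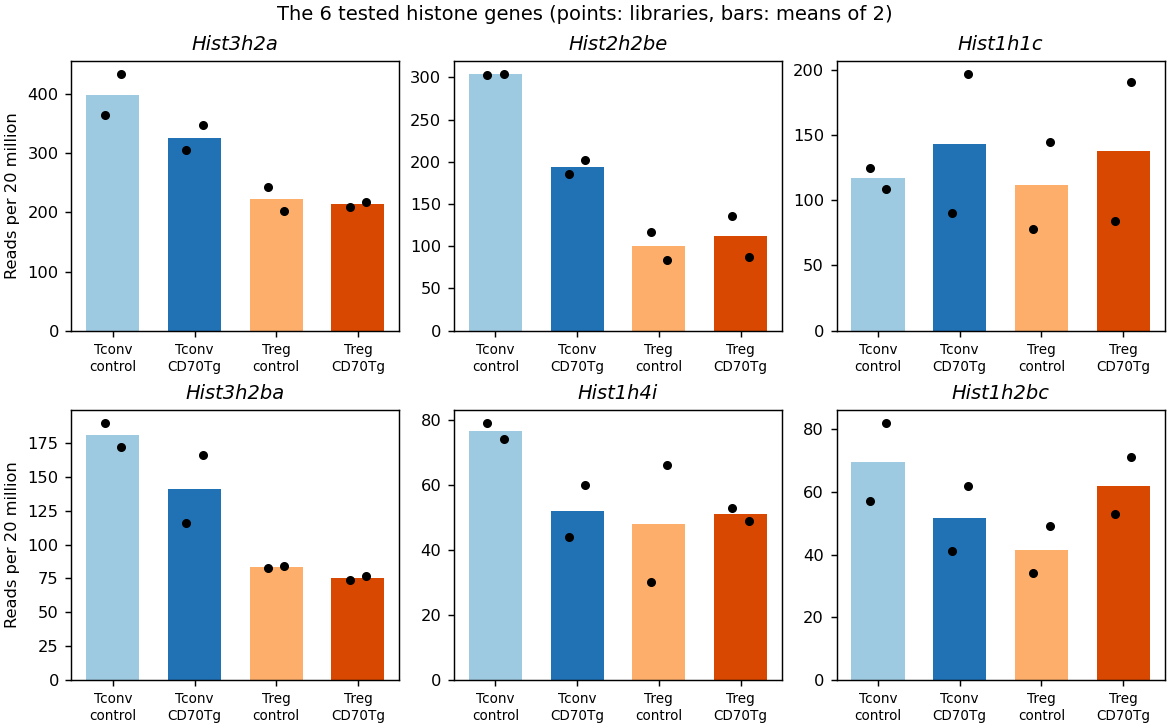
Points are the values of single libraries in reads per 20 M and bars the means of the 2 libraries of a group, for each of the 6 tested histone genes (y axes start at 0 and differ between genes). Hist3h2a, Hist2h2be and Hist3h2ba are higher in all 4 Tconv libraries than in all 4 Treg libraries, while the groups of Hist1h1c overlap.

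The first question was whether the overexpression of CD70 by dendritic cells changed histone mRNAs in either subset. Genes were called at an adjusted p (limma with Benjamini-Hochberg adjustment over 12816 tested genes) under 0.05 if they also changed by more than 1 on the log2 scale in either direction. In Tregs, 0 of the 6 tested members were called, while 2.53% of all tested genes were called higher and 1.08% lower. None of the 6 reached an unadjusted p under 0.05 with limma, against 21.6% of all tested genes. Their log2 fold changes ran from -0.14 ± 0.30 (SE, n = 2 libraries a group) for Hist3h2ba to 0.53 ± 0.40 for Hist1h2bc, and their median was 0.15 beside -0.05 over all tested genes. Leaving out a single library moved this median between -0.03 (without the first control Treg library) and 0.29 (without the second). The smallest adjusted p, that of Hist1h2bc, was 0.48. The 95% intervals of the 6 genes together reached from -0.77 to 1.37, and a change within a gene's interval was not excluded by these libraries. With limma-voom on the recovered reads, too, 0 of the 6 were called in either subset, in the difference of the responses or between the subsets of CD70Tg mice.

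In Tconvs, too, 0 of the 6 members were called, while 4.07% of all tested genes were called higher and 0.577% lower. The log2 fold changes of 5 of the 6 were negative, from -0.64 ± 0.29 for Hist2h2be to -0.28 ± 0.22 for Hist3h2a, and that of Hist1h1c was 0.19 ± 0.42. The median of the 6 was -0.39, beside 0.01 over all tested genes, and it moved to -0.16 without the first and to -0.65 without the second CD70Tg Tconv library. Hist2h2be had the only unadjusted p under 0.05 among them, 0.041, with an adjusted p of 0.23 in limma, where 19.1% of all tested genes fell under 0.05. With limma-voom on the recovered reads the adjusted p of Hist2h2be was 0.023 at a log2 fold change of -0.62, short of the threshold on the fold, and its adjusted p lay between 0.023 and 0.53 over all alternatives run. Its control libraries (303 and 304) lay above its CD70Tg libraries (185 and 202), a ratio of means of 1.57. The intervals of the 6 genes reached from -1.39 to 1.08.

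Markers of other cells also moved with CD70Tg. The CD8 and NK markers (4 genes, 3 tested) summed to 1104 to 1123 in control and 1638 to 1660 in CD70Tg Tconvs, and to 381 to 453 in control and 642 to 660 in CD70Tg Tregs, with 1 of 3 called higher (Cd8a) and 1 lower (Klrb1c) in each subset. Cd8a, a chain of the CD8 receptor, went from 17 and 28 to 508 and 608 in Tconvs (log2 fold change 4.38 ± 0.39) and from 25 and 71 to 262 and 223 in Tregs (2.37 ± 0.39). Myeloid markers (5 genes, 4 tested) summed to 2560 to 2600 in control and 2444 to 2698 in CD70Tg Tregs, where the members did not move one way: 2 of 4 had a positive log2 fold change, with 1 called higher (Itgam, 1.13 ± 0.26) and 0 called lower, although Csf1r had -0.67 ± 0.18 (adjusted p = 0.029, limma), short of the threshold on the fold. They summed to 1464 and 1465 in control and 890 to 1150 in CD70Tg Tconvs, where 0 of 4 were called and 2 had an unadjusted p under 0.05 with limma. B cell markers (5 genes, 2 tested) summed to 151 to 176 in control and 61 to 89 in CD70Tg Tconvs, and to 254 to 379 and 426 to 473 in Tregs, with 0 of 2 called and 1 at an unadjusted p under 0.05 in each subset (limma). Erythroid markers (5 genes, 3 tested) summed to 439 to 1162 in control and 1727 to 2719 in CD70Tg Tregs, where Hba-a1 (1.63 ± 0.33) and Hbb-bs (1.61 ± 0.37), genes of the hemoglobin chains, were called higher. The part of such cells in the values of histone genes and of genes of dividing cells was not tested, in populations from which these cell types had been depleted before a sort for CD3 and CD4.

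The difference between both responses, Treg minus Tconv, was positive in all 6 genes, with log2 values from 0.06 ± 0.59 for Hist1h1c to 0.94 ± 0.56 for Hist1h2bc and a median of 0.46. This median was 0.29 without the first control Treg library and 0.71 without the second CD70Tg Tconv library. In none was it called, and the smallest adjusted p was 0.54 (limma), for Hist2h2be at 0.77 ± 0.41. Over all tested genes 0.148% were called with a higher and 0.733% with a lower response in Tregs, and 10.7% had an unadjusted p under 0.05, against 0 of the 6 members.

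The second question was how the subsets differed from each other. In control mice, 2 of the 6 members were called lower in Tregs and none higher, while 4.43% of all tested genes were called lower and 14.7% higher. On the log2 scale Hist2h2be differed by -1.57 ± 0.29 (limma, adjusted p = 0.00034), with means of 100.5 ± 23.3 (SD, n = 2) in Tregs and 303.5 ± 0.707 in Tconvs. Hist3h2ba differed by -1.07 ± 0.30 (limma, adjusted p = 0.0082), with means of 83.5 ± 0.707 and 181.0 ± 12.7. This second call was lost without the first control Tconv library and with a pseudocount of 20, which left 1 call. Hist3h2a differed by -0.83 ± 0.22 (adjusted p = 0.0056, limma), short of the threshold on the fold. The log2 differences of the other 3 were -0.71 ± 0.41 for Hist1h4i, -0.68 ± 0.40 for Hist1h2bc and -0.13 ± 0.42 for Hist1h1c, and the median of all 6 was -0.77, beside 0.07 over all tested genes.

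In CD70Tg mice 0 of the 6 were called between Tregs and Tconvs, where 4.94% of all tested genes were called lower in Tregs and 12.3% higher. Without the threshold on the fold, 3 members had an adjusted p under 0.05 and were lower in Tregs, as were 20.1% of all tested genes. They were Hist3h2ba at -0.84 ± 0.30 (adjusted p = 0.033), Hist2h2be at -0.80 ± 0.29 (adjusted p = 0.034) and Hist3h2a at -0.60 ± 0.22 (adjusted p = 0.036). The same rule gave 3 members in control mice, where 18.4% of all tested genes passed it. The 3 genes, the same in both genotypes, came from the Hist2 and Hist3 clusters. The remaining 3, all of the Hist1 cluster, had log2 differences between -0.07 and 0.26 in CD70Tg mice.

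**Figure D3:**
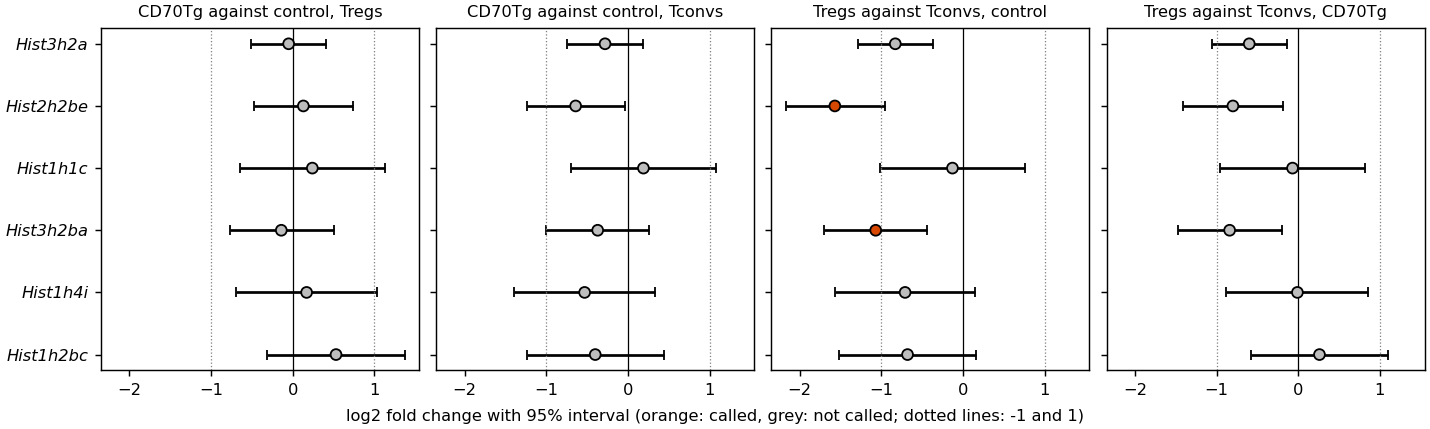
Log2 fold changes (x axis) with 95% intervals of the 6 tested histone genes (rows) in 4 comparisons, from limma; orange marks a called gene and dotted lines the threshold of 1 in either direction. Only Hist2h2be and Hist3h2ba are called, both lower in Tregs than in Tconvs of control mice.

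Other quantities moved with the subset. Depth was lower in every Treg library, as given above. Myeloid markers (5 genes, 4 tested) summed to 1464 and 1465 in control Tconvs against 2560 to 2600 in control Tregs, with 2 of 4 called higher. B cell markers (5 genes, 2 tested) summed to 151 to 176 against 254 to 379, with 1 of 2 called higher, and the CD8 and NK markers (4 genes, 3 tested) summed to 1104 to 1123 against 381 to 453, with 2 of 3 called lower. In CD70Tg mice more of them differed: 4 of 4 myeloid markers (890 to 1150 in Tconvs, 2444 to 2698 in Tregs), 2 of 2 B cell markers (61 to 89 against 426 to 473) and 3 of 3 erythroid markers (671 to 708 against 1727 to 2719) were called higher in Tregs, and 3 of 3 CD8 and NK markers (1638 to 1660 against 642 to 660) lower. Their part in the histone differences was not tested. Fewer cells with a transcript and fewer transcripts per cell cannot be told apart in such bulk libraries. With TMM scaling the median difference between control Tregs and Tconvs over all tested genes shifted by -0.22 and the share of higher among all calls went from 76.9% to 61.6%, and Hist3h2a was called as well, at -1.04.

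The other 64 members were too low to test singly and are given as sums of whole reads, rescaled to 20 M, with 95% Poisson intervals. They summed to 180.4 (154.7 to 209.1) and 232.2 (191.0 to 279.6) in control Tconvs and to 184.4 (142.0 to 235.5) and 275.4 (250.8 to 301.8) in CD70Tg Tconvs. In Tregs they summed to 184.4 (130.5 to 253.1) and 192.6 (140.0 to 258.6) in controls and to 271.6 (177.4 to 398.0) and 358.8 (277.5 to 456.5) in CD70Tg. Both CD70Tg Treg libraries thus lay above both control Treg libraries, on 26 and 66 reads against 38 and 44, and the Tconv groups overlapped. No test was made of these sums, and the interval of the first CD70Tg Treg library, the shallowest of all, covers the values of both controls. The erythroid markers given above moved with the same groups, and their part in these sums was not tested.

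The 6 tested genes gave another picture. They summed to 1116.2 and 1171.5 in control Tconvs, 777.9 and 1030.2 in CD70Tg Tconvs, 582.4 and 626.1 in control Tregs and 605.9 and 690.4 in CD70Tg Tregs. Their share of all histone reads was 86.1% (Wilson 95% interval 84.1 to 87.9) and 83.5% (80.5 to 86.1) in control Tconvs and 80.8% (76.3 to 84.7) and 78.9% (77.1 to 80.6) in CD70Tg Tconvs. It was 75.9% (68.7 to 81.9) and 76.5% (69.9 to 82.0) in control Tregs and 69.0% (58.5 to 77.9) and 65.8% (58.9 to 72.1) in CD70Tg Tregs. The 4 groups did not overlap in this share, although the intervals of single libraries did.

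By type, the 16 untested H2B genes rescaled to 37.9 and 37.7 in control Tconvs, 31.7 and 57.6 in CD70Tg Tconvs, 38.8 and 39.4 in control Tregs and 94.0 and 103.3 in CD70Tg Tregs, the last on 9 and 19 reads. The 12 H3 genes rescaled to 28.7 and 48.1 in control Tconvs, 49.0 and 40.8 in CD70Tg Tconvs, 58.2 and 35.0 in control Tregs and 62.7 and 97.8 in CD70Tg Tregs. For both types the CD70Tg Tregs held the highest values. For H2B their counting intervals were 43.0 to 178.5 and 62.2 to 161.3, which overlap those of the control Treg libraries (16.8 to 76.5 and 18.0 to 74.8). For H3 the values rest on 6 and 18 reads, with counting intervals of 23.0 to 136.4 and 58.0 to 154.6. These overlap that of the first control Treg library (30.1 to 101.7, on 12 reads). Hist1h3c alone gave 7 of the 18 reads. Most of the H3 value came from members with 50% or more of their windows shared, with copies or with genes annotated over the same locus. Over the members with under 50% of windows shared, the H3 group means of the deposited values were lower. They fell from 44.5, 49.5, 48.5 and 83.5 to 7, 12.5, 14 and 28 in the same order of groups. Where the reads lie within the members was not measured. For the 5 untested H1 genes, which rescaled to between 20.5 and 43.8, the groups of each subset overlapped. The 19 untested H2A genes rescaled to 34.0 and 35.0 in control Tregs and to 41.8 and 65.2 in CD70Tg Tregs, the last on 4 and 12 reads, while their Tconv groups overlapped, at 54.3 and 66.9 in controls and 28.8 and 70.2 in CD70Tg. The 12 untested H4 genes rescaled to 29.1 and 39.4 in control Tregs and to 52.2 and 59.8 in CD70Tg Tregs, the last on 5 and 11 reads. Their Tconv groups overlapped, at 38.9 and 48.1 in controls and 46.1 and 68.4 in CD70Tg. For H2A and H4, too, the counting intervals of the CD70Tg Treg libraries overlapped those of the control Treg libraries.

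**Figure D4:**
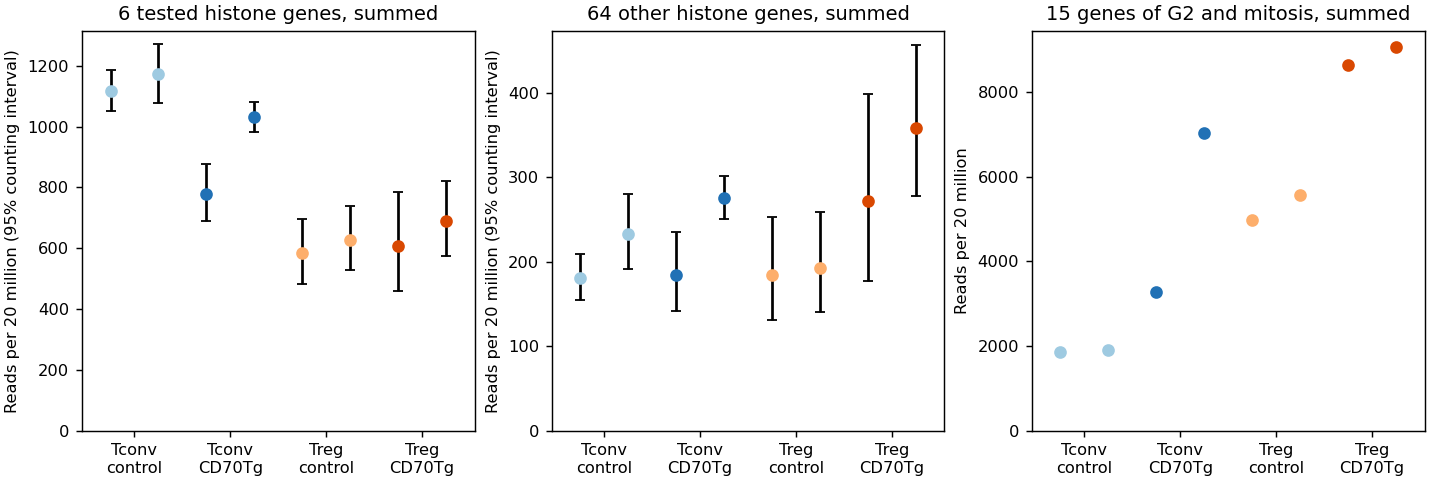
Each point is a library, in reads per 20 M (y axes start at 0), for the sum of the 6 tested histone genes, of the other 64 histone genes and of 15 genes of G2 and mitosis; bars on the histone sums are 95% counting intervals. The 6 genes sum highest in control Tconvs (1116.2 and 1171.5), the 64 others in a CD70Tg Treg library (358.8), and the genes of G2 and mitosis in both CD70Tg Treg libraries.

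Set beside other genes of dividing cells, the tested histone genes did not follow the same order. The 15 genes of G2 and mitosis, led in mean value by Mki67 and Top2a, summed to 1868 and 1904 in control Tconvs, 3280 and 7043 in CD70Tg Tconvs, 4991 and 5585 in control Tregs and 8649 and 9087 in CD70Tg Tregs. In Tconvs 11 of the 15 were called higher in CD70Tg, with a median log2 fold change of 1.41 and the largest fold changes for Bub1, Cdk1, Ccnb2 and Kif11, genes of the spindle checkpoint, of mitotic entry and of the spindle. In Tregs 2 of 15 (Ccnb2 and Ube2c, a mitotic cyclin and a ubiquitin-conjugating enzyme of mitotic exit) were called higher, with a median of 0.81. Mki67, the gene of the proliferation marker Ki-67, had values of 254 and 344 in control Tconvs, 493 and 1311 in CD70Tg Tconvs, 1757 and 2045 in control Tregs and 3020 and 3301 in CD70Tg Tregs. In control mice Tregs had more Mki67 than Tconvs (log2 fold change 2.66 ± 0.29) where Hist2h2be and Hist3h2ba were lower. Of 25 genes of S phase, led by Mcm6 and Pcna, 3 (Tk1, Cdc6 and Uhrf1) were called higher in CD70Tg Tconvs and 0 in CD70Tg Tregs. With limma 12 had an unadjusted p under 0.05 in Tconvs and 4 in Tregs. Log2 fold changes were positive for 25 in Tconvs and 15 in Tregs, with medians of 0.43 and 0.07. Tk1 in Tregs, at 0.92 ± 0.26 (adjusted p = 0.043, limma), was short of the threshold on the fold. The difference of the responses, Treg minus Tconv, was positive in 0 of the 25, with a median of -0.42. Between the subsets, 4 of the 25 had an adjusted p under 0.05 and were lower in control Tregs, as were 18.4% of all tested genes. Another 3 were higher, and the median was 0.17. In CD70Tg mice 8 were lower, beside 20.1% of all tested genes, and 1 higher, with a median of -0.28. The log2 difference, Tregs minus Tconvs, was -0.54 ± 0.11 in control and -0.80 ± 0.11 in CD70Tg mice for Pcna, the sliding clamp of DNA polymerase, and -0.85 ± 0.18 and -1.01 ± 0.18 for Cdt1, which licenses replication origins. For Tk1, a thymidine kinase, it was 1.90 ± 0.26 and 1.23 ± 0.26.

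Of 12 genes that transcribe or process histone mRNAs, 0 were called between CD70Tg and control in either subset with limma, and 2 had an unadjusted p under 0.05 in each. Lsm11, a component of the U7 particle that cleaves histone mRNA precursors, differed by -0.77 ± 0.20 in Tregs (adjusted p = 0.024, limma), short of the threshold on the fold. The highest in mean value were Sympk and Upf1, of the cleavage complex and of histone mRNA decay. Slbp, the gene of the stem-loop binding protein, ranged from 1047 to 1420 over the 8 libraries, with log2 fold changes of -0.17 ± 0.14 in Tregs and 0.21 ± 0.14 in Tconvs. In control mice 1 of the 12, Casp8ap2, whose product takes part in histone gene transcription, was called higher in Tregs, at 1.03 ± 0.17 (adjusted p = 0.00016, limma). Of all tested genes 14.7% were called higher there. By an adjusted p under 0.05 alone 4 of the 12 were higher and 0 lower. Beside Casp8ap2 they were Npat (0.58 ± 0.16), Hinfp (0.70 ± 0.18) and Upf1 (0.49 ± 0.13). Of 10 histone chaperones and their partners, led in mean value by Rbbp4 and Ssrp1, 1 was called in CD70Tg Tconvs. Chaf1a, a subunit of the chromatin assembly factor that deposits new histones at replication forks, was higher by 1.45 ± 0.31 (adjusted p = 0.0056, limma). It was also called higher in control Tregs than in control Tconvs, at 1.03 ± 0.31 (adjusted p = 0.013, limma). By adjusted p alone 3 of the 10 were lower there.

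The testis histones are known from germ cells and not from T cells. Hist1h2aa and Hist1h2ba, an H2A and an H2B of the testis, were at 0 in all 8 libraries. Hist1h1t, the testis linker histone, had a single read in 1 control Treg library and none in the other 7. Hist1h2ad, Hist1h2aj and Hist1h3b, outside this list, were also at 0 throughout, and most members were near the limit of detection. The low values of the testis histones therefore do not set them apart from the family.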

How the data were processed

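RNA was extracted from sorted cells by the authors and paired-end libraries were made with an Ovation SoLo kit. The deposited values are a score: per the labels and methods, reads were trimmed with Trimmomatic 0.36, aligned with STAR 2.5.3 to mm10 and counted with HTSeq 0.9.1, then scaled to 20 M per library, and the values are whole numbers rounded up. Strand and annotation are not given in the sources used here. Columns tagged KO were read as CD27+/- controls, since the labels hold no further genotype. Whole reads were recovered from the step between low values (for the deepest library, whose step is under 1, with less certainty). Rows named as genomic clones (4131) were left out. limma 3.58.1 (R 4.3.3, trend on log2(value + 5), 4 group coefficients, 8 libraries) was run on 12816 genes and tested on simulated data. Fold changes are on the log2(value + 5) scale, which understates those of low genes. Exact permutation of 2 against 2 libraries cannot pass 0.05, so none was made. Named genes were, per histone type, the 2 highest in mean, up to 4 called per comparison by absolute log2 fold change, the testis histones and members with the same exon sequence as another. Per list they were the 2 highest and up to 4 called, but the cell type markers were named only in part and H2afz outside this rule. Hist1h2bc was added as the sixth tested member. Slbp, Hist1h2bj, Trim17, Lsm11, Npat, Hinfp, H3f3a, Pcna, Cdt1 and Csf1r were added after their values were seen. The members and lists were chosen with earlier results of these data known. Annotation and sequences came from GENCODE M21 on GRCm38, in which all 70 members were found.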

Additional observations from a re-analysis of the deposited data

How the results depend on the processing

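Of 564 member values under 19 alternatives, 534 kept their direction and side of the threshold, 8 became calls and 2 lost theirs. Another 20 changed sign, for log2 fold changes of 0.26 or less. Many of these values could not change in fold. Other thresholds and filters, only the libraries compared, and a library left out of a group not compared all left the estimate as it was. The count of 534 is therefore no measure of stability. In Tconvs under CD70 and in the difference of responses, 0 members were called under every alternative run. Without a filter on low values (65 members tested), Hist2h4 was called higher in CD70Tg Tregs against controls (1 call) and against Tconvs (1), and Hist1h4k lower against Tconvs (1), all on few reads, and the medians became 0.13 (Tconvs, from -0.39), -0.08 (difference), -0.17 (subsets, controls). Between control subsets, calls lower in Tregs fell from 2 to 1 with a pseudocount of 20 and ranged from 1 to 2 with a library left out. In CD70Tg they were 3 without the fold threshold, 1 with GC and length correction and 0 to 1 with a library left out, where the median ranged from -0.65 to -0.16. Sign changes: in Tregs under CD70, leaving out a library gave -0.18 to 0.08 for Hist3h2a, -0.18 to 0.44 for Hist2h2be, -0.33 to 0.81 for Hist1h1c and -0.34 to 0.68 for Hist1h4i. For Hist1h1c it gave -0.36 to 0.73 in Tconvs, -0.51 to 0.63 in the difference, -0.55 to 0.30 between control and -0.64 to 0.50 between CD70Tg subsets, where Hist1h4i gave -0.22 to 0.19 and Hist1h2bc -0.01 to 0.53, and Hist3h2ba -0.02 to 0.48 in the difference. The difference of Hist1h1c was -0.00 with GC and length correction and -0.06 with limma-voom. Summed over members with under 50% of windows shared, control Tconvs, CD70Tg Tconvs, control Tregs and CD70Tg Tregs had H3 means of 7, 12.5, 14 and 28. Control Tconvs, control Tregs and CD70Tg Tregs had 405.0, 232.0 and 222.0 for H2A, 584.0, 250.5 and 311.5 for H2B, and 1256.5, 713.0 and 824.0 for all members. H4 means were 115.5 and 97.5 in control Tconvs and CD70Tg Tregs. Rescaled recovered reads, chosen after seeing the data, gave 590.2 (H2B) and 119.6 (H4) in control Tconvs and 44.9 (H3) in CD70Tg Tconvs. The cause was not tested. No paired analysis was possible because the columns carry no replicate numbers of the labels. Depth limits the 64 low members most: in the shallowest library 3 reads equal a value of 31.3.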

Other observations

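Histone variants that are also made outside S phase come mostly from polyadenylated mRNAs (H2afx is known to give a stem-loop form as well), and 9 of 11 such genes passed the filter, against 6 of the 70 replication-dependent genes. The highest in mean value were H3f3b and H2afy. Between CD70Tg and control 0 of the 9 were called in either subset with limma, and 3 had an unadjusted p under 0.05 in each. H3f3a was lower in CD70Tg Tconvs, at -0.55 ± 0.12 (adjusted p = 0.0075, limma), short of the threshold on the fold. In control mice H1f0, the linker histone of cells that have stopped dividing, was called higher in Tregs, with values of 2102 and 1892 against 971 and 739 in Tconvs (log2 fold change 1.23 ± 0.18). H2afj, an H2A variant, was called lower, with 1034 and 968 against 2189 and 1967 (-1.05 ± 0.17). H2afz, the gene of H2A.Z, had 5983 and 5263 against 3124 and 3093 (0.85 ± 0.12), short of the threshold on the fold.

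Other RNAs without a poly(A) tail were present in the same libraries. Of 10 such genes 2 passed the filter, Rpph1 and Rn7sk. Rpph1 had values of 62 and 93 in control Tconvs, 101 and 23 in CD70Tg Tconvs, 25 and 136 in control Tregs and 105 and 131 in CD70Tg Tregs. The RNA polymerase III transcript Rn7sk had values of 800 and 496 in control Tconvs, 928 and 281 in CD70Tg Tconvs, 1437 and 2098 in control Tregs and 3751 and 2491 in CD70Tg Tregs. Its values and those of the histone genes without a poly(A) signal were not tested against each other.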
